A study of Mus musculus with 6 samples.

Results

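The genes described here encode ATP-dependent chromatin remodelers: subunits of the SWI/SNF (BAF) complexes, the ISWI-type and other SNF2-type ATPases, the CHD family, and the INO80 and SRCAP complexes, with Adnp, Pogz and Atrx. They were chosen by symbol, without use of their levels. The rule took 49 of the 22000 rows of the count table, and all 49 had at least 1 CPM (read counts scaled to library size) in every mouse of a group and were tested. They include 1 row, Chd3os, that the symbol rule takes but that is a noncoding neighbour of Chd3 and no remodeler, so the counts over 49 members cover 48 remodeler genes and that row. RNA came from the prefrontal cortex (PFC) of male C57BL/6N mice aged 9 weeks, with 1 library per mouse. The 3 mice of the early life stress (ELS) group had been housed alone in cages with a filter cap from weaning, and the 3 control mice had been co-housed in a group, without a cap. The study's methods state that stressed and control mice came from litters of the same mother, but which libraries were littermates is not given in the sources used here. All mice were wild type. The comparison asks whether isolation after weaning is accompanied by a different level of any remodeler transcript in the PFC.

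Remodelers use ATP to slide, evict or exchange nucleosomes, and so set how accessible promoters and enhancers are. A BAF complex is built around 1 ATPase, Smarca2 or Smarca4, with a shared core and interchangeable subunits. When neural progenitors leave the cell cycle they exchange several subunits, among them Actl6a, Dpf2 and Ss18, for Actl6b, Dpf1 or Dpf3, and Ss18l1. The resulting neuronal BAF complex is needed for dendrite growth and activity-dependent transcription. Mutations of Arid1b, Chd2, Chd8, Adnp, Pogz and Atrx are known causes of human neurodevelopmental disorders.

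The 6 libraries held 28405795 to 35241743 counts. Defining markers of neurons, astrocytes, oligodendrocytes and microglia were present in every mouse. None was called between the groups, but only 0.0152% of all genes were, so this does not show that cell composition was equal. Control mouse 3 and ELS mouse 1 stood apart from the other 4. The summed level of 7 markers of striatal projection neurons was 466 CPM in control mouse 3 and 443 CPM in ELS mouse 1, and 243 to 316 CPM in the others. The sum of 5 oligodendrocyte markers was 6226 and 5551 CPM in these mice and 4718 to 5214 CPM in the others. Each group holds 1 such mouse. Results are also given without control mouse 3, the library whose removal changed the counts of members most. That fit keeps ELS mouse 1, so a mouse that stood apart is then left in the ELS group only. In bulk tissue, fewer cells of a type and less RNA per cell cannot be told apart.

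Promoter sequences from RefSeq (GRCm38.p6) were matched for 38 of the 49 genes. The promoters of Dpf1 and Chd5 are shown because Dpf1 was the only member at an unadjusted p under 0.05 and Chd5 belongs to the genes that were low together in control mouse 3 and ELS mouse 1. Each runs 5′ to 3′ on the strand of the gene and ends before its annotated first exon. The Dpf1 stretch was shortened to 196 bases for this, since its gene model begins before the RefSeq start. Capitals mark matches, on either strand, to the CCAAT box and to the GC box, GGGCGG.
Dpf1 (chr7:29303755-29303950, plus strand): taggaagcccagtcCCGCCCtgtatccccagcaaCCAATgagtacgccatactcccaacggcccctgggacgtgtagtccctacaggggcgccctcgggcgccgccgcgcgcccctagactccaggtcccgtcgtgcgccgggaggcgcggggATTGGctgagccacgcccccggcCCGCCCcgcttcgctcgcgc
Chd5 (chr4:152338401-152338650, plus strand): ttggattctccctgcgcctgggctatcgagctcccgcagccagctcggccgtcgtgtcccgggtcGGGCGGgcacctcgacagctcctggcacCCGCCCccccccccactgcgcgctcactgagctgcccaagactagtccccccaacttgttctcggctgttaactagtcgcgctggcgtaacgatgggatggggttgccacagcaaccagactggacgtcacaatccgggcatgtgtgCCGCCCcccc

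In the full 250 bases before each RefSeq start site, without shortening, GGGCGG was found in 35 of 45 member windows (77.8%), against 32.7% of all 32851 windows. The 35 windows belong to 31 of 38 genes. The 32851 windows were not limited to the genes tested. The median GC content of member windows was 64.8%, and none was computed for all windows. The part of base composition was not tested. CCAAT was found in 13 member windows (28.9%, against 33.8% of all). The E-box CACGTG was in 4 (8.89%, against 6.02%), in the windows of Bcl7b, Bcl7c, Ino80e and Pbrm1. The cyclic AMP response element TGACGTCA was in none of the 45 (1.55% of all), which says only that these letters are not in these windows. The ETS core CCGGAA was in 11 (24.4%, against 12% of all). These matches describe the letters and not binding.

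No remodeler gene was called between ELS and control mice. A gene was called where its log2 fold change exceeded 0.3 in size and its p, adjusted by Benjamini-Hochberg, was under 0.05. The quasi-likelihood test of edgeR gave 0 calls among the 49 members, against 0.0152% of all genes tested, and DESeq2 gave 0, against 0.137%. The adjusted p of every member was 0.999978 in the quasi-likelihood test. At an unadjusted p under 0.05, 1 member was found by either tool, Dpf1, against 4.23% of all genes by the quasi-likelihood test (2.34% lower and 1.89% higher in ELS mice) and 3.72% by DESeq2. Of the members, 24 had a negative and 25 a positive log2 fold change, with a median of 0.0030, where the median of all 13185 genes was -0.0046. The log2 fold changes ran from -0.20 (Smarcd2) to 0.19 (Dpf3), so none was beyond 0.3 in size, a size that 4.64% of all genes exceeded. The 95% interval of the log2 fold change lay wholly between -0.3 and 0.3 for 37 of the 49 members (75.5%), against 61.4% of all genes. The median half-width of that interval was 0.17 for members and 0.19 for all genes, both on the log2 scale. For the other 12 members, a change larger than 0.3 on the log2 scale was not excluded at this spread.

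**Figure D1:**
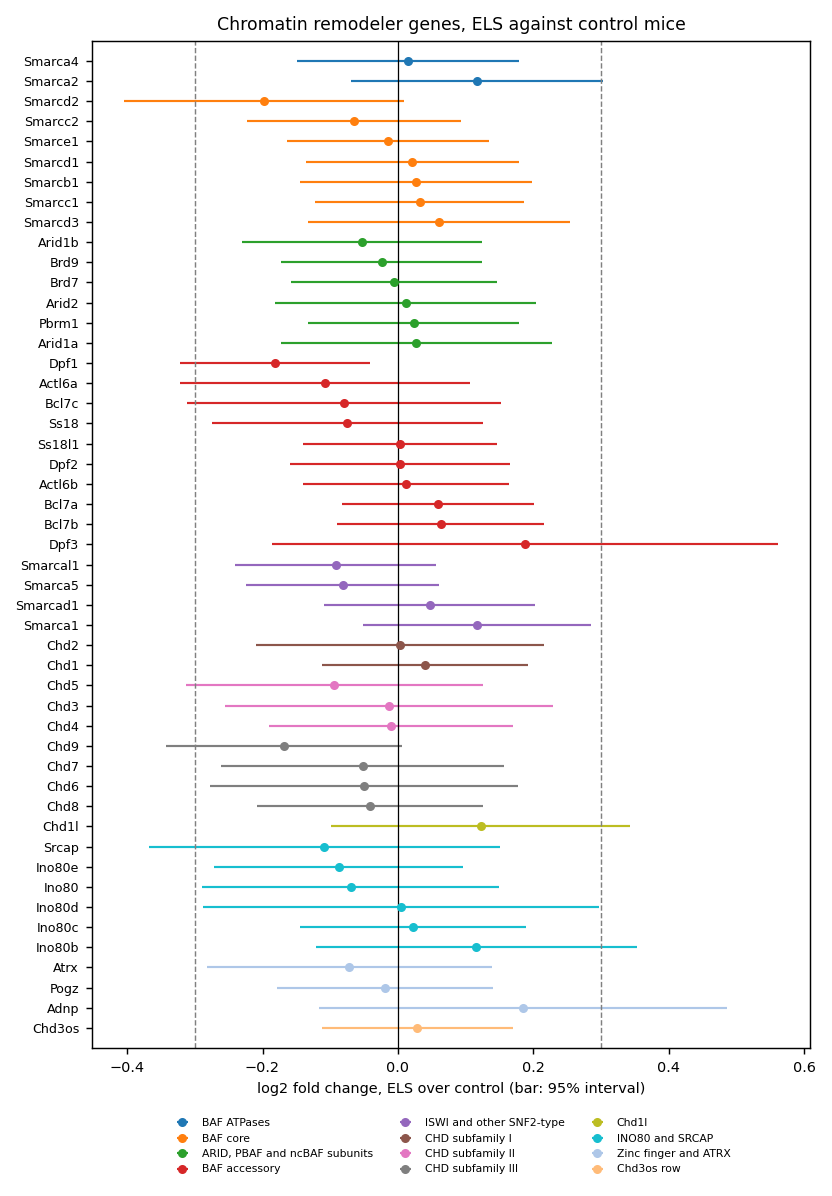
Log2 fold change (ELS over control, horizontal axis) of each of the 49 members (48 remodeler genes and the Chd3os row), with its 95% interval from the quasi-likelihood fit, coloured by family; dashed lines mark -0.3 and 0.3. All points lie between -0.20 and 0.19, and only the interval of Dpf1 lies wholly on 1 side of 0.

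Groups did not overlap in 5 of the 49 members, against 8.28% of all genes. All ELS mice lay below all control mice in Smarcd2, Dpf1, Smarcal1 and Smarca5 (4 members, against 4.47% of all genes), and above in Chd1l (1 member, against 3.81%). Without control mouse 3 these counts were larger for members and for all genes alike: 7 members had an unadjusted p under 0.05, against 11.7% of the 13212 genes then tested, and 15 had groups that did not overlap, against 29.5%. Those 7 were Dpf1, Chd5, Chd9, Smarcd3, Atrx, Smarcd2 and Smarcc2, with Smarcd3 alone higher in ELS mice, and the smallest adjusted p was 0.224 in the quasi-likelihood test. This fit keeps ELS mouse 1, the other mouse that stood apart. Without ELS mouse 1 and with control mouse 3 kept, 1 member had an unadjusted p under 0.05, against 3.53% of all genes. With a score of striatal markers as a covariate, 3 members had an unadjusted p under 0.05 (Dpf1, Smarca2 and Chd9), against 7.42% of all genes.

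The log2 fold changes of both BAF ATPases were above 0 and neither passed the test. Smarca4 had 144, 141 and 126 CPM in control mice 1 to 3 and 128, 142 and 145 CPM in ELS mice 1 to 3. These values overlap throughout, and the log2 fold change was 0.02 (standard error 0.0756). Smarca2, the alternative ATPase, had 273, 250 and 233 CPM in control mice and 246, 272 and 302 CPM in ELS mice. ELS mouse 3 was the highest of the 6 and control mouse 3 the lowest, and the log2 fold change of 0.12 (95% interval -0.07 to 0.30) was not separated from 0. It ran from 0.04 (without ELS mouse 3) to 0.19 (without ELS mouse 1) when a mouse was left out. Per kb of exon, Smarca4 stood at 21.2 and Smarca2 at 17.7 CPM per kb in control mice.

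The 7 core subunits had log2 fold changes from -0.20 to 0.06, with 3 negative and 4 positive. Smarcd2, which with its paralogs Smarcd1 and Smarcd3 bridges transcription factors to the complex, had 14.4, 14.98 and 13.9 CPM in control mice and 13.0, 11.6 and 13.2 CPM in ELS mice. All ELS values lay below all control values, but the gap between the nearest mice was smaller than the spread within the ELS group. Its log2 fold change was -0.20 (95% interval -0.40 to 0.01, unadjusted p = 0.0594 in the quasi-likelihood test). Smarcd1, the most abundant of these paralogs per kb of exon at 34.6 CPM per kb in control mice, had a log2 fold change of 0.02 (standard error 0.0725). Smarcd3 had 71.0, 66.2 and 85.9 CPM in control mice and 79.7, 75.3 and 77.7 CPM in ELS mice, so control mouse 3 was above every ELS mouse while the other controls were below. Its log2 fold change was 0.06 with all mice, 0.18 without control mouse 3, 0.03 without control mouse 1, -0.02 without control mouse 2 and 0.02 when the striatal score was a covariate. The gene Chpf2 on the opposite strand overlaps 48.2% of the Smarcd3 exons, and the strand setting of the counting is not given in the sources used here. Smarcc2, a scaffold subunit and second in level per kb among all members at 59.2 CPM per kb in control mice, averaged 329 ± 26.8 CPM (SD, n = 3) over control mice and 314 ± 10.2 CPM over ELS mice. Its paralog Smarcc1 had 67.3 ± 5.01 and 68.8 ± 1.06 CPM. Smarcb1 and Smarce1 had log2 fold changes of 0.03 and -0.01.

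The subunits that distinguish the forms of the complex had 6 log2 fold changes between -0.05 and 0.03, with all 6 intervals inside -0.3 to 0.3. Arid1a, of canonical BAF, had 106, 116 and 93.5 CPM in control mice and 95.4, 117 and 109 CPM in ELS mice. Arid1b had 85.4, 86.7 and 75.8 CPM in control mice and 73.3, 87.4 and 78.2 CPM in ELS mice. In both genes control mouse 3 and ELS mouse 1 were the lowest of their groups, and the groups overlapped. Arid2, Pbrm1 and Brd7 of the PBAF form had log2 fold changes of 0.01, 0.02 and -0.01, and Brd9 of the noncanonical form -0.02.

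Among the 10 accessory subunits, the neuronal ones were above their progenitor counterparts for Actl6b and Ss18l1, in both groups. Actl6b, an actin-related subunit (chromosome 5, 137553517 to 137569582, plus strand), had 60.1, 61.7 and 68.0 CPM in control mice and 63.3, 65.6 and 62.6 CPM in ELS mice. Actl6a had 13.0, 12.5 and 14.2 CPM in control mice and 11.5, 12.2 and 13.0 CPM in ELS mice. Per kb of exon, the Actl6b to Actl6a ratio was 4.36 in control and 4.74 in ELS mice, and the Ss18l1 to Ss18 ratio 4.14 and 4.35. The neighbouring gene Mrpl47 overlaps 11.6% of the Actl6a exons on the opposite strand. Ss18, the subunit known from its fusion in synovial sarcoma, had 27.6, 27.0 and 33.7 CPM in control mice and 28.5, 27.3 and 28.1 CPM in ELS mice, with control mouse 3 above all others.

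Dpf1, a PHD finger subunit of neuronal BAF that reads histone modifications (chromosome 7, 29303951 to 29318243, plus strand, promoter shown above), had 58.4, 58.2 and 55.4 CPM in control mice. It had 51.4, 49.9 and 50.2 CPM in ELS mice, so all ELS mice lay below all control mice. Its log2 fold change was -0.18 (standard error 0.0646, 95% interval -0.32 to -0.04). The unadjusted p was 0.0151 in the quasi-likelihood test and 0.0183 in DESeq2, and the adjusted p was 0.999978 and 0.999916. Without a mouse in turn, the log2 fold change of Dpf1 ran from -0.21 to -0.17. Without ELS mouse 2 or ELS mouse 3, its unadjusted p in the quasi-likelihood test was no longer under 0.05. Its paralog Dpf2 averaged 38.5 ± 2.76 CPM (SD, n = 3) over control mice and 38.6 ± 1.01 CPM over ELS mice. Dpf3, the third paralog, had 3.41, 2.83 and 2.76 CPM in control mice and 3.24, 3.40 and 3.63 CPM in ELS mice. Control mouse 1 reached into the range of the ELS mice, and the log2 fold change of 0.19 had an interval from -0.19 to 0.56. Bcl7a, Bcl7b and Bcl7c had log2 fold changes of 0.06, 0.06 and -0.08.

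To describe the balance of subunits, the log2 ratio of counts was taken within each mouse for 11 pairs of paralogs. Library size and gene length cancel between groups in these ratios. The group difference in a ratio largely restates the log2 fold changes of its genes, so the pairs are not separate evidence. The groups did not overlap in 5 pairs, each with p = 0.1 in the exact two-sided permutation test, the smallest this design allows, and 0.22 after Benjamini-Hochberg adjustment over the 11 pairs. No share of non-overlapping ratios over other gene pairs was computed, so the 5 are a description and cannot be called unusual. The Dpf1 to Dpf2 log2 ratio was 0.57 ± 0.10 in control and 0.39 ± 0.057 in ELS mice (SD, n = 3 each), a difference of -0.19. The Dpf3 to Dpf2 log2 ratio was 0.19 higher in ELS mice, at -3.68 ± 0.088 in control and -3.49 ± 0.085 in ELS mice, and shares its denominator with the first. The Smarca2 to Smarca4 log2 ratio was 0.88 ± 0.053 in control and 0.98 ± 0.067 in ELS mice, and its difference of 0.10 was 0.06 without ELS mouse 3. The log2 ratio of Smarcc2 to Smarcc1 was 2.29 ± 0.042 and 2.19 ± 0.029. The Smarca1 to Smarca5 log2 ratio differed by 0.20, from -1.42 ± 0.022 in control to -1.23 ± 0.12 in ELS mice. The other 6 pairs overlapped, with differences from -0.08 to 0.12, among them Actl6b to Actl6a at 0.12 (exact permutation p = 0.2) and Ss18l1 to Ss18 at 0.07 (exact permutation p = 0.9).

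**Figure D2:**
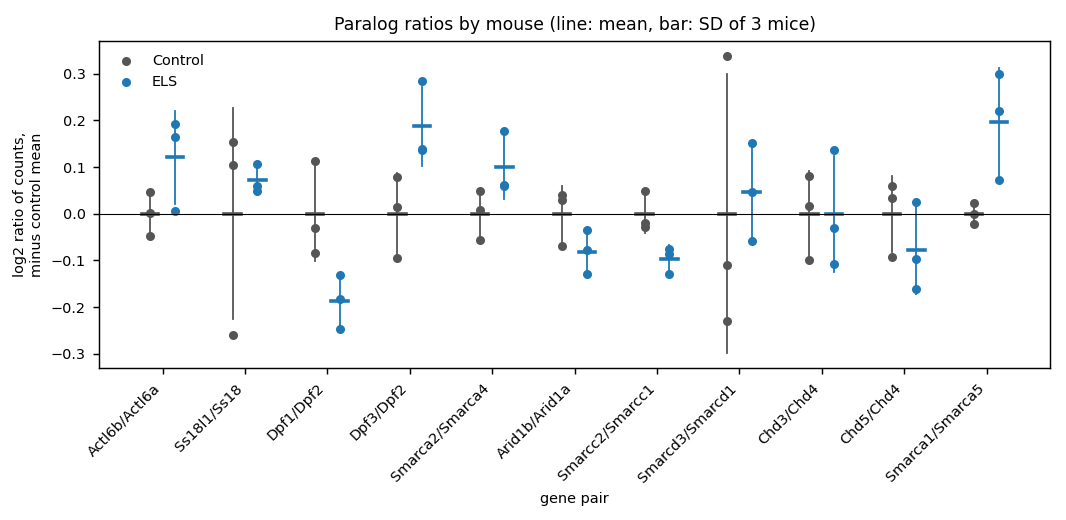
Log2 ratio of counts within each mouse for the 11 pairs of paralogs (vertical axis, one column per pair), after subtraction of the control mean of that pair; points are mice, lines the group mean and bars the SD of 3 mice. ELS points lie clear of control points in 5 pairs, with no share over other gene pairs to set beside them, lower for Dpf1/Dpf2 and Smarcc2/Smarcc1 and higher for Dpf3/Dpf2, Smarca2/Smarca4 and Smarca1/Smarca5.

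The ISWI-type ATPases differed in sign. Smarca5, which spaces nucleosomes and is linked to dividing cells, had 81.5, 76.0 and 75.7 CPM in control mice and 74.6, 70.8 and 74.9 CPM in ELS mice, without overlap but with the nearest mice of the groups less than 1 CPM apart. Smarca1, the ISWI ATPase enriched in neurons, had 30.4, 28.8 and 27.8 CPM in control mice and 32.4, 32.5 and 29.4 CPM in ELS mice, where control mouse 1 exceeded ELS mouse 3. The log2 fold changes were -0.08 for Smarca5 and 0.12 for Smarca1, with unadjusted p of 0.237 and 0.159 in the quasi-likelihood test. Smarcal1, a fork-remodeling DNA translocase, had 52.9, 48.9 and 48.7 CPM in control mice and 47.9, 47.7 and 45.6 CPM in ELS mice, a log2 fold change of -0.09. Smarcad1 had 0.05.

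The CHD family held the member with the highest level per kb of exon. Chd3, Chd4 and Chd5, the alternative ATPases of the NuRD deacetylase complex, stood at 64.5, 19.9 and 27.5 CPM per kb of exon in control mice, and Chd3 was first of the 48 members with a known exon length. Chd3 had 586, 598 and 449 CPM in control mice and 465, 591 and 563 CPM in ELS mice. Chd5, the neuronal paralog (chromosome 4, 152338651 to 152390194, plus strand), had 287, 286 and 218 CPM in control mice and 227, 265 and 249 CPM in ELS mice. Chd4 had 170, 167 and 142 CPM in control mice and 148, 158 and 169 CPM in ELS mice. In all 3 genes control mouse 3 and ELS mouse 1 were the lowest of the 6 mice. The log2 fold changes were -0.01 for Chd3, -0.09 for Chd5 and -0.01 for Chd4, and all groups overlapped. Without control mouse 3 that of Chd5 was -0.21 (unadjusted p = 0.00786, adjusted p = 0.26 in the quasi-likelihood test). That fit keeps ELS mouse 1, the other mouse that stood apart. The log2 fold change of Chd5 was -0.04 without ELS mouse 1, -0.03 without control mouse 1 or control mouse 2, -0.15 without ELS mouse 2, -0.10 without ELS mouse 3, and -0.02 with the striatal covariate.

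Chd1 and Chd2, which act at transcribed genes, had log2 fold changes of 0.04 and 0.00. Chd2, a gene of epileptic encephalopathy, had 45.6, 42.4 and 34.96 CPM in control mice and 37.5, 42.8 and 43.0 CPM in ELS mice, and 18.4% of its exons are shared with a noncoding gene on the same strand. All 4 members of the Chd6 to Chd9 subfamily had log2 fold changes below 0, from -0.17 to -0.04, as had 52.5% of all genes. The shared sign did not hold in every fit: Chd6 was at 0.0089 with the striatal covariate and Chd8 at 0.0086 without control mouse 1. Chd8, a gene strongly tied to autism, had 97.8, 94.6 and 82.5 CPM in control mice and 84.8, 89.3 and 93.0 CPM in ELS mice, a log2 fold change of -0.04 (95% interval -0.21 to 0.13). Chd9 had 63.1, 71.5 and 59.9 CPM in control mice and 53.9, 60.2 and 59.0 CPM in ELS mice, overlapping only where ELS mouse 2 exceeded control mouse 3. Its log2 fold change was -0.17 (95% interval -0.34 to 0.01, unadjusted p = 0.0566 in the quasi-likelihood test), and -0.09 without control mouse 2. Chd1l, a remodeler recruited to DNA damage, had 8.97, 9.00 and 9.26 CPM in control mice and 9.96, 9.93 and 9.74 CPM in ELS mice. The groups did not overlap and were tight, at a log2 fold change of 0.12 (95% interval -0.10 to 0.34, unadjusted p = 0.252 in the quasi-likelihood test). The interval uses a spread estimated across genes and not from these 6 values alone. The row Chd3os, taken by the symbol rule, is listed in RefSeq as a synonym of Rnf227, a neighbour of Chd3, and averaged 169 ± 7.72 CPM (SD, n = 3) over control mice and 172 ± 3.52 CPM over ELS mice.

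The INO80 and SRCAP genes, whose complexes exchange histone variants, had log2 fold changes from -0.11 (Srcap) to 0.12 (Ino80b), 3 negative and 3 positive. A further annotated gene on the same strand shares 61.7% of the Srcap exons, so its means of 8.98 ± 0.484 CPM (SD, n = 3) over control mice and 8.32 ± 0.874 CPM over ELS mice are uncertain. Likewise, a gene on the same strand shares 82.1% of the Adnp exons, so its level is uncertain. Adnp, a homeodomain and zinc finger protein that binds Chd4 (chromosome 2, 168180986 to 168207112, minus strand), had 5.78, 5.63 and 6.18 CPM in control mice and 6.06, 7.69 and 6.23 CPM in ELS mice. ELS mouse 2 stood above the other 5, which lay close together. The log2 fold change was 0.18 (95% interval -0.12 to 0.49), and 0.06 without that mouse. Pogz, a zinc finger protein that binds heterochromatin protein, had 47.8, 50.4 and 43.5 CPM in control mice and 45.1, 47.2 and 47.4 CPM in ELS mice. Atrx, which deposits a histone variant at heterochromatin, had 194, 188 and 148 CPM in control mice and 155, 177 and 172 CPM in ELS mice. For Atrx, control mouse 3 lay below every ELS mouse and the other controls above, and the log2 fold change was -0.07 with all mice. It was -0.19 without control mouse 3, a fit that keeps ELS mouse 1, and -0.02 without ELS mouse 1, 0.0011 without control mouse 1, -0.12 without ELS mouse 2 and -0.0060 with the striatal covariate.

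**Figure D3:**
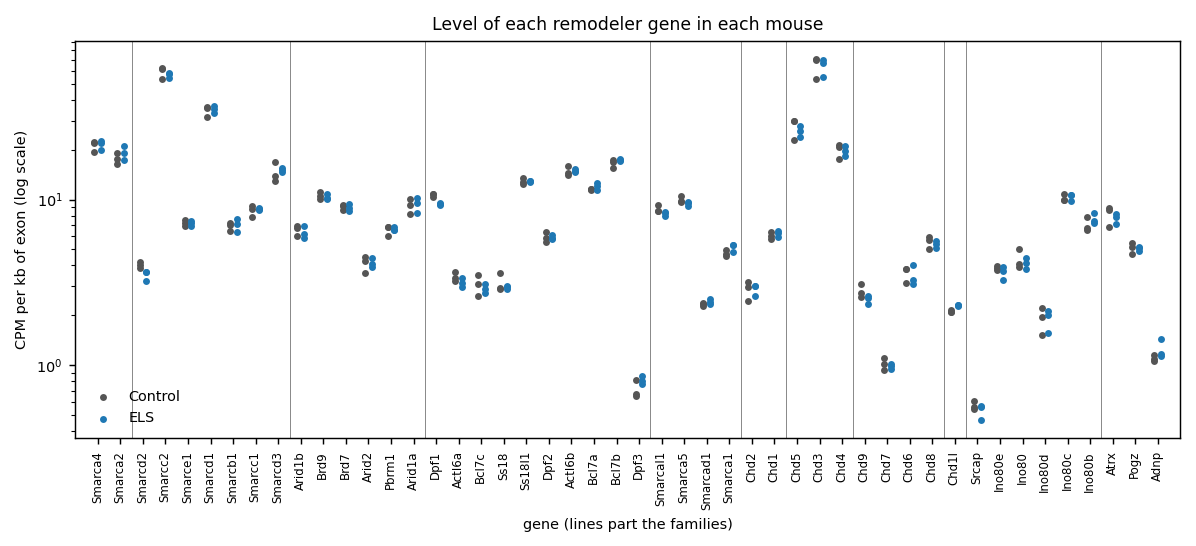
Level of the 48 remodeler genes with a known exon length in each mouse, in TMM-scaled CPM per kb of merged exon on a log axis, by family (control mice grey, ELS mice blue). Levels span from 0.569 (Srcap) to 64.5 CPM per kb (Chd3) in the control means, and the distance between the groups within a gene is small beside the distances between genes.

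Many members were low in the same pair of mice, 1 from each group. Control mouse 3 had the lowest CPM of the 6 mice in 20 of the 49 members, a position it held in 21.4% of all genes. Control mouse 3 and ELS mouse 1 were together the lowest pair in 19 members (38.8%), against 16.5% of all genes. These 19 included Arid1a, Arid1b, Arid2, Atrx, Chd2 to Chd6, Chd8, Ino80d, Pbrm1, Pogz, Smarca2 and Smarca4. A first component of the members' deviations from their means over the 6 mice held 56.1% of the variance, with weights of 0.64 for control mouse 3 and 0.46 for ELS mouse 1 and negative weights for the other 4. All members together took 0.369% of the counts of control mouse 3 and 0.382% of those of ELS mouse 1, and 0.403% to 0.413% in the other mice. The pair holds 1 mouse of each group, so the pattern does not run along the groups.

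**Figure D4:**
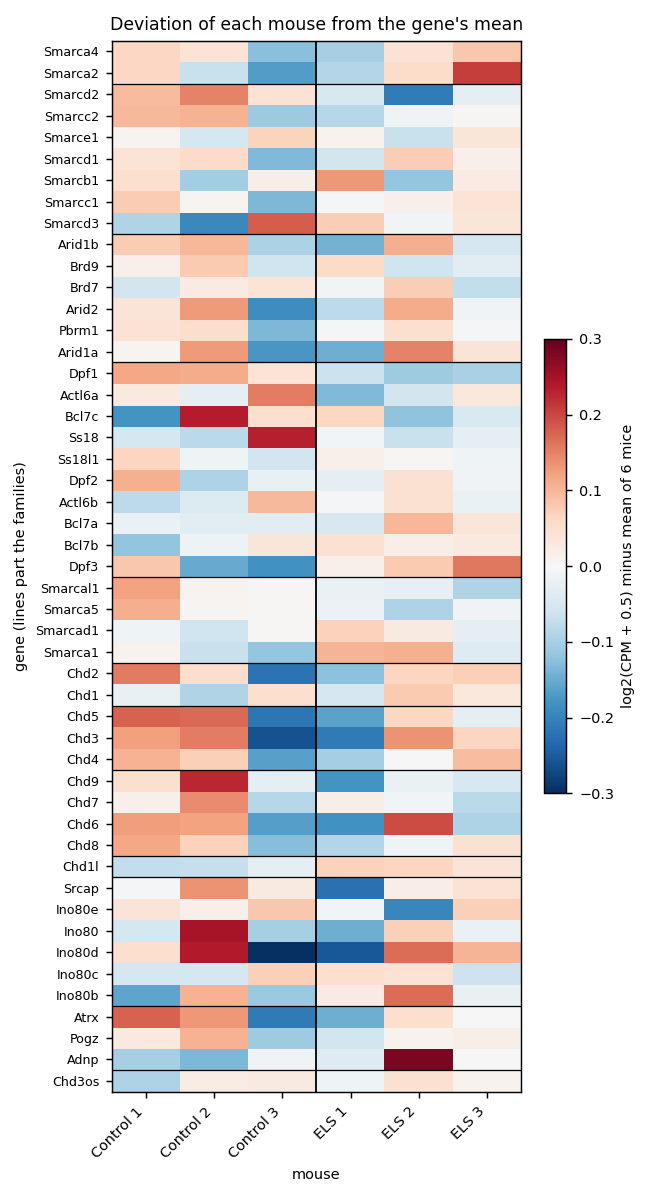
Deviation of each mouse (columns) from the mean of the 6 mice for each member (rows, by family), as log2(CPM + 0.5), from blue (lower) to red (higher). The columns of control mouse 3 and ELS mouse 1 are blue in Chd3, Chd5, Atrx, Arid1a and Ino80d.

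The genes that were low in these mice tended to have long transcripts. The median merged exon length was 9583 bases for the 19 members and 6118 bases for the 29 other members with a known length, and 7588 bases for all genes with the same lowest pair against 4705 bases for all genes tested that had one. Across the 48 members with a length, the Spearman correlation of the deviation with exon length was -0.45 in control mouse 3 and -0.52 in ELS mouse 1. It was 0.36 and 0.38 in control mice 1 and 2, and 0.14 and 0.12 in ELS mice 2 and 3. Over the 12579 genes with a length the values were -0.43 in control mouse 3 and -0.30 in ELS mouse 1, so the trend was not confined to remodelers. The points within a mouse share its library and scaling, and the values are descriptive. The striatal and oligodendrocyte marker sums given above were highest in the same 2 mice. The sum of 4 blood markers was too, at 75.3 CPM in control mouse 3 and 73.1 CPM in ELS mouse 1 against 45.1 to 57.3 CPM in the others. The part of tissue composition, blood, transcript length or RNA quality in the pattern was not tested.

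**Figure D5:**
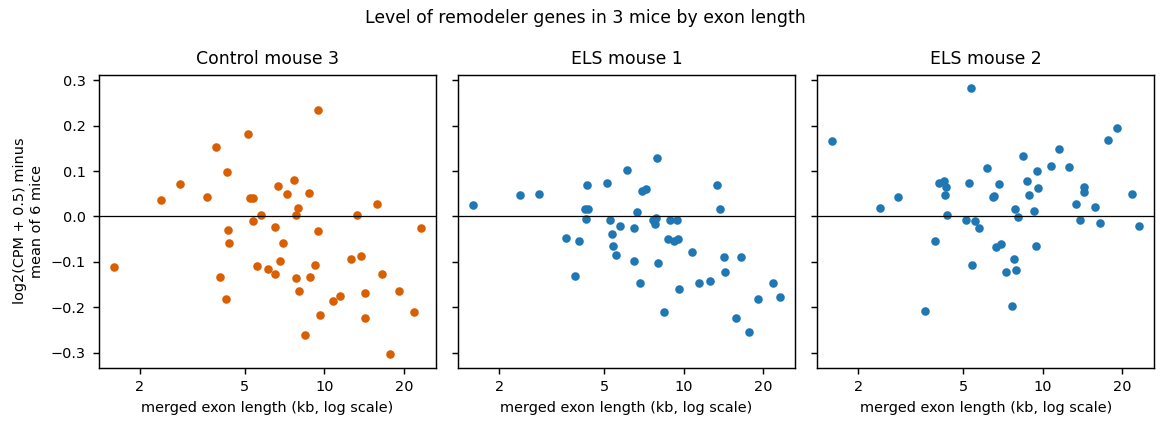
Deviation of 3 mice from the mean of the 6 mice, as log2(CPM + 0.5), against merged exon length in kb (log axis); each point is 1 of 48 remodeler genes. Deviations tend to be lower in longer genes in control mouse 3 and ELS mouse 1 (Spearman -0.45 and -0.52), with exceptions such as Smarcad1, and the trend is weak and positive in ELS mouse 2 (0.14).

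No partner gene of these complexes was called. Of 50 listed subunits and binding partners outside the members, 49 were tested and 0 were called, and 2 had an unadjusted p under 0.05, against 4.23% of all genes. Both belong to ISWI complexes. Cecr2, a bromodomain partner of the ISWI ATPases, had 2.57, 3.15 and 2.58 CPM in control mice and 4.02, 3.55 and 4.84 CPM in ELS mice, a log2 fold change of 0.58 (unadjusted p = 0.00806, adjusted p = 0.949 in the quasi-likelihood test). Baz1a, a subunit that pairs with Smarca5, had 2.63, 2.83 and 2.86 CPM in control mice and 1.4996, 1.74 and 2.14 CPM in ELS mice, a log2 fold change of -0.63 (unadjusted p = 0.00858, adjusted p = 0.949 in the quasi-likelihood test). In both genes the groups did not overlap, and the levels were between 1.4996 and 4.84 CPM. Over the 49 partners, 2 at an unadjusted p under 0.05 are 4.08%, and 4 without overlap (Mta1 and Ruvbl1 are the others) are 8.16%, against 4.23% and 8.28% of all genes, so both shares were at the background. The 11 NuRD partners had log2 fold changes from -0.12 to 0.11, and the 19 partners in INO80, SRCAP and TIP60 complexes from -0.11 to 0.17.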

How the data were processed

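Per the study's methods, reads were trimmed (Trimmomatic) and aligned to mm10 (STAR), and uniquely mapped reads were assigned to genes (HTSeq). The submitters' processing notes name STAR 2.7.1a and HTSeq 0.9.1, while the study's methods name another STAR version. Both sources describe stranded libraries, but the kit is TruSeq in the labels and KAPA in the study's methods, and which was used could not be settled; the strand setting and annotation used for counting are not given in the sources used here. The authors deposited raw counts per gene symbol, 1 column per mouse. Columns named for social isolation were matched to the ELS mice by number. Each mouse gave 1 library and counted as 1 replicate. A check for a library deposited in duplicate found none (chi-square per degree of freedom 6.70 or more between libraries of a group).

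The 13185 genes that reached 1 CPM in each mouse of at least 1 group were scaled by TMM and compared with the quasi-likelihood test of edgeR 4.0.16 in R 4.3.3, with condition as the only term. P-values were adjusted over all genes. Standard errors and 95% intervals came from the F statistic and its degrees of freedom. CPM are TMM-scaled. Gene models and merged exon lengths were from GENCODE M21 (GRCm38, the assembly of mm10), matched for 48 of the 49 members. Paralog ratios used counts plus 0.5.

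Members and lists were chosen with earlier results of these data known. Named members were those of the paralog pairs, those at an unadjusted p under 0.05 or without overlap, the 3 highest and 3 lowest log2 fold changes, and Adnp, Pogz, Atrx, Arid1b, Chd8 and Chd2; values of the remaining members were added by family after they had been seen. Promoter motifs and the comparison with exon length were chosen after the data were seen. Alternatives were DESeq2 1.42.0, the likelihood ratio test, limma-voom (limma 3.58.1), other normalizations and filters, thinned counts, a replicate block, a striatal covariate and fits without each mouse in turn. The fit was tested on simulated counts.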

Additional observations from a re-analysis of the deposited data

How the results depend on the processing

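No member and no partner gene was called under any of the alternatives. The number of members at an unadjusted p under 0.05 was 1 in the reported fit and ran from 0 to 7 with a mouse left out. It was 0 without ELS mouse 2 or ELS mouse 3, 7 when control mouse 3 was removed and 3 once the striatal score was a covariate. Members whose groups did not overlap ran from 6 to 15 with a mouse left out, where fewer mice make separation easier. There were 15 without control mouse 3 (29.5% of all genes), 9 without ELS mouse 3 (14.8%) and 6 or 7 in the other 4 fits (14.8% to 17.6%). The median log2 fold change of members ran from -0.052 (without control mouse 3) to 0.016. No difference in paralog ratio moved by more than the SD within groups. Leaving out 1 of 3 mice cannot move it further than that, so this limit says nothing about stability. The difference of Smarcd3 to Smarcd1 (0.05) ran from -0.07 without control mouse 2 to 0.22 without control mouse 3. That of Ss18l1 to Ss18 (0.07) was -0.06 without control mouse 3. That of Chd3 to Chd4 (-0.0009) ran from -0.07 without ELS mouse 2 to 0.05 without ELS mouse 1.

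Small log2 fold changes had no settled sign. With the striatal covariate they were -0.0025 for Actl6b, 0.064 for Chd3, 0.033 for Chd4 and 0.0078 for Pogz, and with thinned counts -0.025 for Ss18l1, each opposite in sign to the reported fit. Leaving out a mouse turned the sign in 16 of 29 named members. Their ranges were -0.023 to 0.065 for Actl6b, -0.052 to 0.10 for Arid1a, -0.13 to 0.0011 for Arid1b, -0.19 to 0.0011 for Atrx, -0.10 to 0.087 for Chd2, -0.14 to 0.081 for Chd3, -0.092 to 0.040 for Chd4 and -0.11 to 0.0086 for Chd8. They were -0.041 to 0.062 for Dpf2, -0.076 to 0.030 for Pogz, -0.043 to 0.065 for Smarca4, -0.027 to 0.080 for Smarcc1, -0.039 to 0.056 for Smarcd1, -0.016 to 0.18 for Smarcd3, -0.13 to 0.033 for Ss18 and -0.026 to 0.038 for Ss18l1. Without control mouse 1, Smarca5 was at -0.05, Smarcal1 at -0.05 and Dpf3 at 0.29. The cause was not tested.

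With the replicate number as a replicate block, 1 member had an unadjusted p under 0.05 and none was called. The correlation between the deviations of mice with the same number was -0.15, 0.24 and -0.03. These values cannot show whether such mice were littermates, since control mouse 3 and ELS mouse 1 stood apart and bear different numbers. As the sources used here do not give the littermates, the reported fit did not pair the mice. Lower depths than the smallest library were not tried, and intervals were wider for low genes such as Dpf3 and Adnp.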
